A study of Mus musculus with 11 samples.

Results

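miR-221 and miR-222 were profiled in 8 normal mammary glands and 3 mammary tumors of the mouse, on a custom array that carried 334 mouse miRNAs. Each of the pair had 4 of the 1336 plus-strand mouse spots, and the 8 spots were chosen by the miRNA name in the spot description, without use of any measured value. The glands came from females late in pregnancy, a stage rich in mammary epithelium, of the strains FVB (2 arrays), Balbc (3 arrays) and FVB129B6 (3 arrays). The tumors were primary mammary tumors of C3(1)/Tag mice (3 arrays, labelled C3TAg) on the FVB strain. In this transgenic model the flanking region of the rat prostate steroid binding protein gene C3(1) drives the SV40 T and t antigens, and the resulting tumors are counted among the basal-like mouse models. Total RNA of whole tissue from females was labelled in each case. The tumors came from individual mice, whereas nothing states that the glands of a strain came from separate animals, and the titles of Balbc replicates 2 and 3 could name 2 glands of 1 mouse. The p-values therefore measure the spread between these samples.

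The pair is transcribed together as one precursor from the X chromosome. Both miRNAs carry the same seed, the stretch near the 5′ end that pairs with target messages, and so share most predicted targets. They are known to repress the Cip/Kip cell cycle inhibitors p27Kip1 (Cdkn1b) and p57Kip2 (Cdkn1c), the receptor kinase Kit and estrogen receptor alpha (Esr1), and in the breast they have been linked to the basal-like subtype. The question put to these data was how the levels of the pair, and the balance between its members, stood in glands of the 3 strains and in basal-like tumors.

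The mature sequences and the part of each array probe that stands before the common linker are shown because all results rest on a pair of probes that share a seed. Capitals mark bases 2 to 8 of the miRNA, the seed, and their complement in the probe. The mature sequences are those of RefSeq for mouse build GRCm38.p6 and the probes are those of the array files, all 5′ to 3′.
mmu-miR-221-3p: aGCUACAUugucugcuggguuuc
mmu-miR-222-3p: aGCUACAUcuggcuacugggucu
mmu-miR-221 probe: aaacccagcagacaATGTAGCt
mmu-miR-222 probe: gagacccagtagccagATGTAGCt

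Both matures have 23 bases. They share their first 8 bases, and the same base stands at 11 of the 23 positions. The mature miR-221 lies at chrX:19146307-19146329 and the mature miR-222 at chrX:19146901-19146923, both on the minus strand, in hairpins of 95 (Mir221) and 79 bases (Mir222) that are 504 bases apart. Of 1679 mature mouse miRNAs in the table, 3 carry this seed, the pair and miR-1928, and of the mouse probes on the array only those of miR-221 and miR-222 hold its complement. The parts of their probes before the linker lie 5 base edits apart, and the next nearest probes are those of miR-181b and miR-34a, at 9 edits from the miR-221 probe, and that of miR-107, at 9 edits from the miR-222 probe. Whether either miRNA also binds the other's probe was not tested. Only differences between arrays are therefore read below, and the 2 probes are not ranked against each other.

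The arrays differed in brightness. Over the 1336 spots the median green signal was 508 to 671.5 on the Balbc and FVB129B6 arrays, 188.5 and 245.5 for FVB and 125 to 170 for the tumors. At least 50% of a miRNA's spots had to carry the program's call for the miRNA itself to count as well above background. By this measure 209 to 262 miRNAs passed in each gland and 15 to 64 in each tumor. The 8 gland arrays lay on 1 slide, where FVB had a column to itself, and those of the 3 tumors shared a second slide, read with a different program version. Tumor and slide cannot be told apart, and neither can the FVB strain and its column of the slide. The level used here is the log2 green signal (dye Hy3) less the median of its array, averaged over the spots of the miRNA, so that 0 is the median spot of an array. All 7 epithelial miRNAs of a marker list (miR-141, the miR-200 members, miR-203 and miR-205) were well above background on every gland array. On the tumor arrays 1 to 4 of them were, and miR-141, miR-200b and miR-203 were on none.

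Both miRNAs were clearly measured in every gland. All 32 gland spots of each were well above background, and every spot of the pair was brighter than every one of the 77 negative control spots on all 11 arrays. The green signal of miR-221, as the geometric mean of its spots, was 2902 and 3284 on the FVB arrays, 5516, 5067 and 6377 on the Balbc arrays, 5814, 6960 and 6868 on the FVB129B6 arrays and 4948, 1992 and 4859 on the tumor arrays. That of miR-222 was 1243 and 1565 in FVB, 1964, 1789 and 2301 in Balbc, 1869, 2220 and 2270 in FVB129B6 and 2158, 810 and 2807 in the tumors. Before any scaling the FVB glands were thus the dimmest glands for both miRNAs, and tumor replicate 2 was the dimmest array of all. The spots of a gland array agreed closely, with an SD between them of 0.01 to 0.08 for miR-221 and of 0.06 to 0.14 for miR-222 on the log2 scale. One spot of miR-221 in FVB129B6 replicate 2 was marked as an outlier and left out. On the tumor arrays this SD was 0.19 to 0.66 and 0.18 to 0.72. In tumor replicate 2, 3 of the 4 spots of miR-221 and 1 of the 4 spots of miR-222 were well above background, so miR-222 was well above background on 2 of the 3 tumor arrays. The raw spot brightness over the local background was 10.8 to 28.01-fold for miR-221 and 5.30 to 10.04-fold for miR-222 in the glands, and 2.52 to 4.599-fold and 2.11 to 3.42-fold in the tumors.

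**Figure D1:**
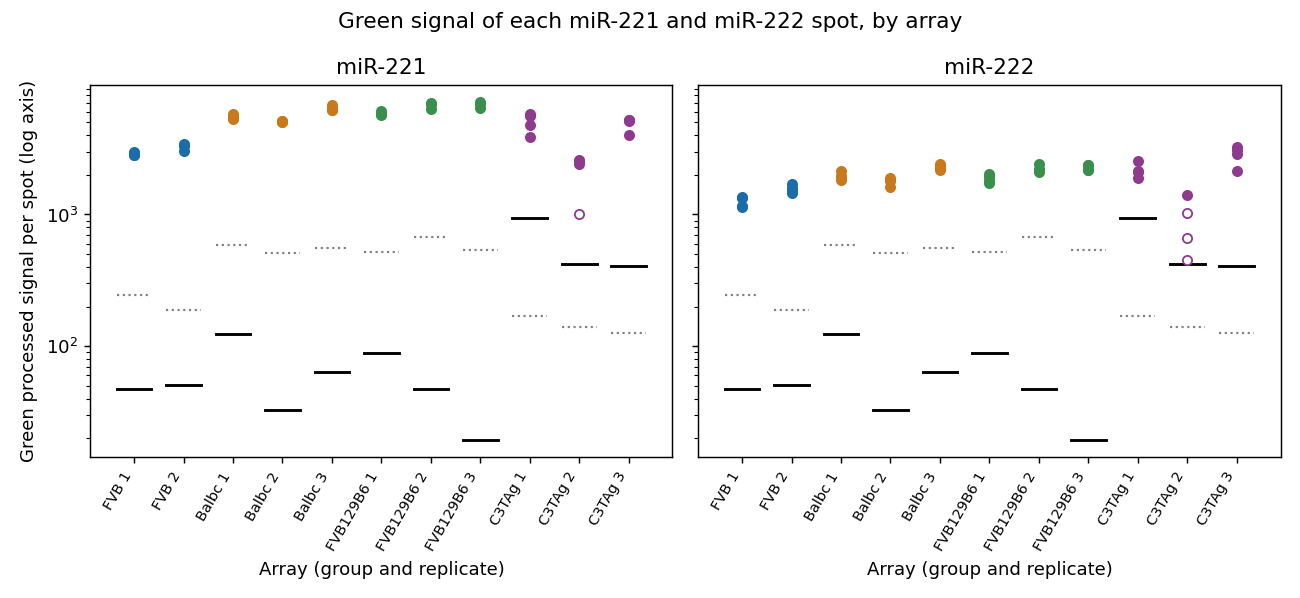
Green processed signal of the 4 spots of miR-221 (left) and miR-222 (right) on each of the 11 arrays, on a log axis. Filled points were well above background and open points were not, black bars mark the brightest of the 77 negative control spots of the array and dotted grey bars its median spot. The open points all lie in C3TAg replicate 2, and the tumor arrays combine a lower median spot (125 to 170) with brighter negative controls (up to 406 to 936, against 19.4 to 123 on the gland arrays).

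Relative to the array median, miR-222 was higher in FVB glands than in both other strains, and no strain difference of miR-221 passed the test. The level of miR-221 was 3.56 and 4.12 in FVB, 3.24, 3.32 and 3.51 in Balbc and 3.48, 3.37 and 3.68 in FVB129B6 glands. The FVB arrays overlapped the FVB129B6 arrays and lay above the Balbc arrays. The level of miR-222 was 2.34 and 3.05 in FVB, 1.75, 1.82 and 2.04 in Balbc and 1.84, 1.72 and 2.08 in FVB129B6 glands. Both FVB arrays were above all 6 others, which overlapped each other. In whole tissue, fewer cells of a type and less RNA per cell cannot be told apart.

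The order of the strain means was FVB (3.84 ± 0.40, SD, n = 2), FVB129B6 (3.51 ± 0.15, SD, n = 3) and Balbc (3.36 ± 0.14, SD, n = 3) for miR-221. No neighbours in this order were told apart by the test. In limma's contrasts with Benjamini-Hochberg adjustment over 261 miRNAs, miR-221 had a log2 difference of -0.49 (95% interval -0.99 to 0.02, adjusted p = 0.11) for Balbc minus FVB and of -0.33 (-0.83 to 0.17, adjusted p = 0.253) for FVB129B6 minus FVB. For miR-222 the means were 2.70 ± 0.50 (SD, n = 2) in FVB, 1.88 ± 0.18 (SD, n = 3) in FVB129B6 and 1.87 ± 0.15 (SD, n = 3) in Balbc. miR-222 was lower than in FVB by a log2 difference of -0.83 (standard error 0.24, limma adjusted p = 0.0321) in Balbc, 1.77-fold, and of -0.81 (standard error 0.24, limma adjusted p = 0.0313) in FVB129B6, 1.76-fold. Balbc and FVB129B6 glands were not distinguished for either miRNA, with differences of -0.15 (limma adjusted p = 0.767) for miR-221 and -0.01 (limma adjusted p = 0.987, 95% interval -0.52 to 0.50) for miR-222.

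These calls stood among many. Of the 261 miRNAs tested, limma called 37.9% between Balbc and FVB (32.2% lower in Balbc), 39.5% between FVB129B6 and FVB (31.4% lower in FVB129B6) and 3.45% between Balbc and FVB129B6. One of the pair, miR-222, was among the calls in each of the first 2 contrasts and neither in the last. The median difference over all 261 miRNAs was -0.48 for Balbc minus FVB and -0.39 for FVB129B6 minus FVB, so miR-221 moved with the median of all miRNAs (-0.00 and 0.06 relative to it), and miR-222 fell by 0.35 and 0.42 relative to it. The 99 calls between Balbc and FVB were 15 higher and 84 lower in Balbc, and the 103 between FVB129B6 and FVB 21 higher and 82 lower, but with each array scaled to its 75th percentile they were 31 higher and 16 lower, and 40 higher and 43 lower. With that scale the median shift over all miRNAs was -0.05 and -0.03, and the differences of miR-222 from FVB were -0.40 and -0.45, which limma did not call (adjusted p = 0.208 and 0.151). Without any scaling the signs turned, at 0.53 and 0.60 for miR-222 (limma adjusted p = 0.0631 and 0.0347). For miR-221 the unscaled differences were 0.87 and 1.08 (limma adjusted p = 0.00674 and 0.00217). FVB was thus called lower in all of these but the Balbc contrast of miR-222. The call of miR-222 with median scaling also rested on few arrays. Without FVB replicate 2 its differences from FVB were -0.47 in Balbc and -0.46 in FVB129B6 (limma adjusted p = 0.169 and 0.172). The Balbc call was further lost without FVB129B6 replicate 1 (-0.83, limma adjusted p = 0.057) or Balbc replicate 1 or 2 (-0.77 and -0.80), and the FVB129B6 call without FVB129B6 replicate 1 or 2 (-0.79 and -0.73). Without FVB replicate 1 the difference of miR-221 between Balbc and FVB was -0.77 and was called (limma adjusted p = 0.0311).

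**Figure D2:**
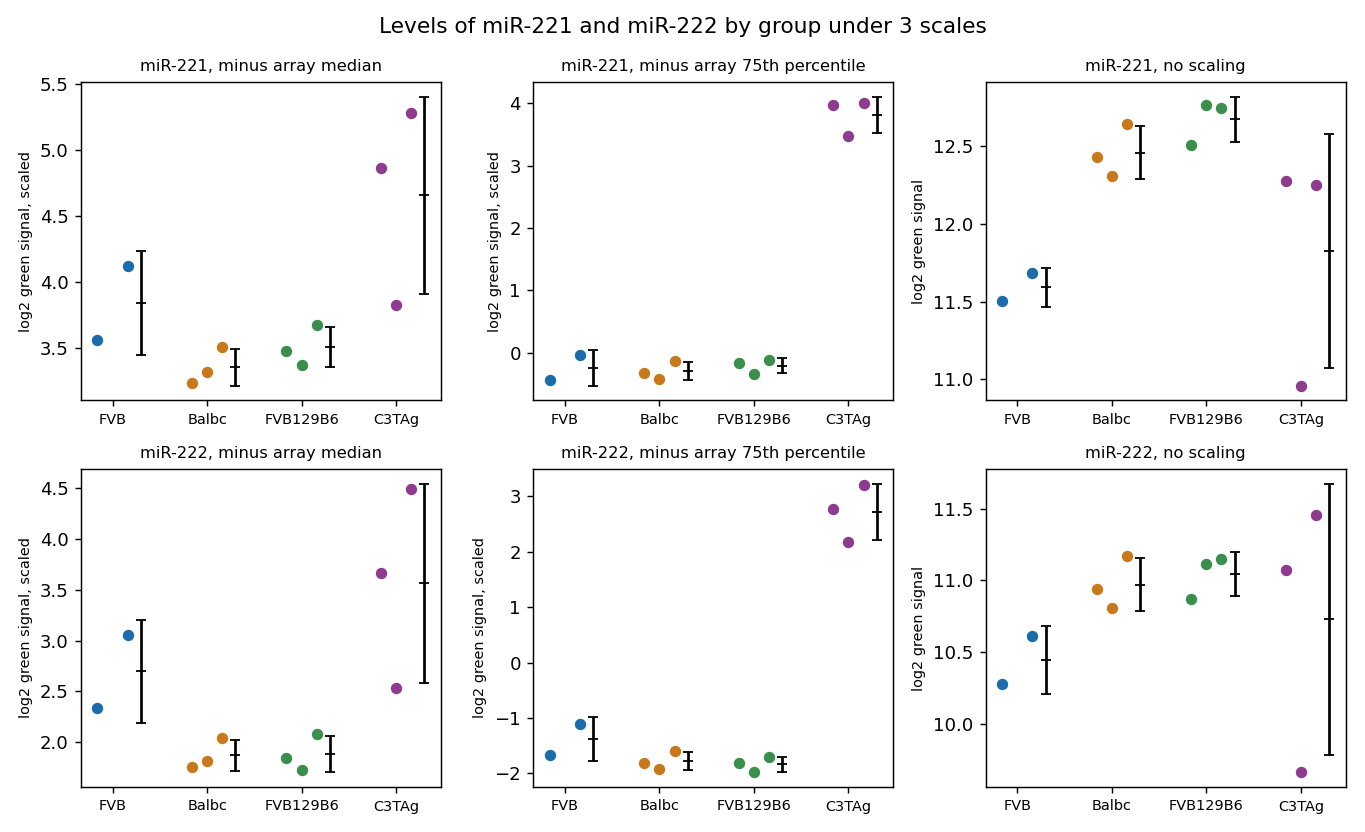
Levels of miR-221 (top) and miR-222 (bottom) by group on 3 scales, the log2 green signal less the array median (left), less the array's 75th percentile (middle) and without scaling (right). Points are arrays and bars the group mean with its SD (n = 2 for FVB, n = 3 for the others). Less the median, miR-222 is highest in FVB among the glands (2.70 ± 0.50), without scaling FVB is the lowest (10.45 against 10.97 in Balbc and 11.04 in FVB129B6), and the tumor mean lies above all gland means on the first 2 scales only.

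The balance between the pair did not overlap between the strains, although no planned test of 2 strains could pass with so few arrays. The log2 signal of miR-222 less that of miR-221 on the same array does not depend on a constant that scales the array, and since both come from 1 precursor it sets its 2 products side by side between samples. The difference was -1.22 and -1.07 on the FVB arrays, -1.49, -1.50 and -1.47 on the Balbc arrays and -1.64, -1.65 and -1.60 on the FVB129B6 arrays. No array of a strain overlapped those of another strain in the green channel, and the FVB arrays had the most miR-222 for their miR-221. How often other pairs of miRNAs separate the strains in this way was not tested. Of the 261 single miRNAs, limma called 37.9% between Balbc and FVB and 39.5% between FVB129B6 and FVB. The means of the pair difference were -1.15 ± 0.11 (SD, n = 2), -1.49 ± 0.02 (SD, n = 3) and -1.63 ± 0.03 (SD, n = 3). The pair difference of Balbc was lower than that of FVB by a log2 value of -0.34, that of FVB129B6 lower than that of FVB by -0.48, and Balbc exceeded FVB129B6 by 0.14. Each of these had p = 0.1 in an exact two-sided permutation test, the smallest that 2 against 3 or 3 against 3 arrays allow, and 0.12 after Benjamini-Hochberg adjustment over 6 tests of the pair difference. A single exact permutation test over the 3 strains was chosen after the lack of overlap had been seen and is no independent evidence of it. This exact permutation test gave an F of 51.7 and p = 0.00357, the smallest that the 560 relabelings allow (0.0214 after adjustment). Without FVB replicate 1 the F was 238 and without FVB replicate 2 it was 128, each with 1 FVB array left and from the same data.

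The gap between FVB and the other strains was seen with each way of reading the signal, although its size was not constant. Before dye normalization the means were -1.26 in FVB, -1.61 in Balbc and -1.70 in FVB129B6, and with a normexp background correction -1.02, -1.43 and -1.52. In the red channel, whose RNA the labels do not name, they were -1.38, -1.55 and -1.59, and the Balbc and FVB129B6 arrays overlapped. The step from Balbc to FVB129B6 turned its sign under quantile normalization (-0.11 for Balbc minus FVB129B6). The FVB arrays were also the dimmest glands, with 5.30 and 6.36-fold signal over background for miR-222 against 6.88 to 10.04-fold in the other strains. The part of brightness in the strain gap was not tested, and the FVB strain and its slide column cannot be told apart.

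**Figure D3:**
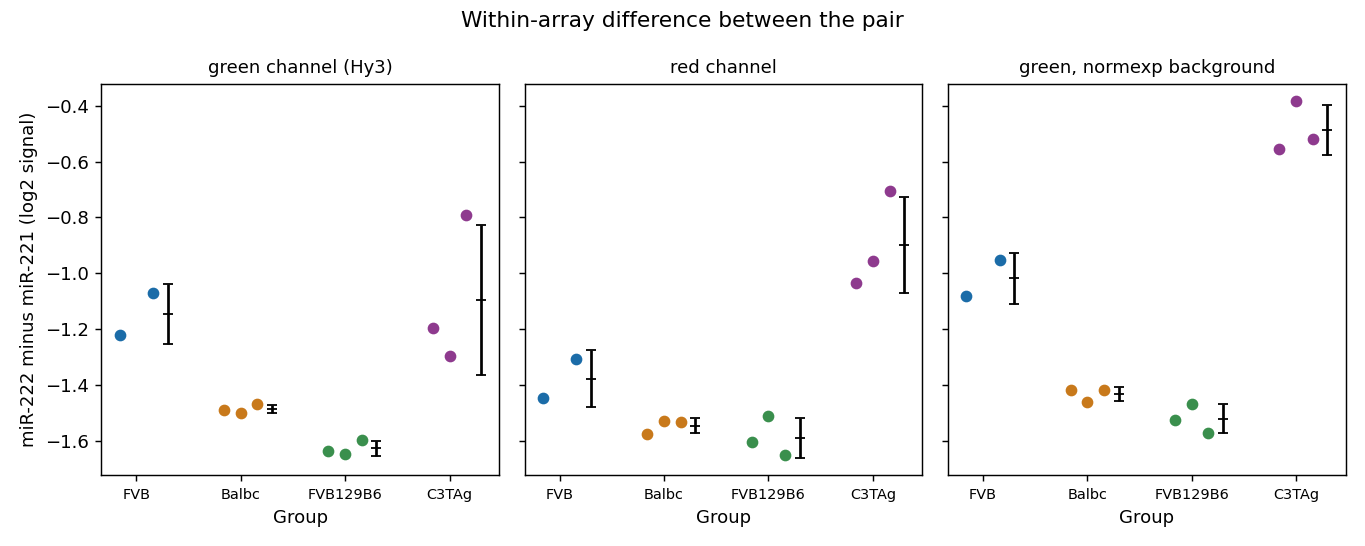
miR-222 minus miR-221 in log2 signal on each array, for the green channel, the red channel and the green channel after normexp background correction. Points are arrays and bars the group mean with its SD. The 2 FVB arrays lie above all Balbc and FVB129B6 arrays in all 3 panels, and the tumors lie above all glands in the red and normexp panels but overlap FVB in the green one (-1.10 ± 0.27 against -1.15 ± 0.11).

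In the C3(1)/Tag tumors, miR-221 and miR-222 were among the few miRNAs that stood out from background. Among the 261 miRNAs tested, 15 passed background in each of the 3 tumors, miR-221 included, 21 in 2 of them, miR-222 included, 30 in 1 and 195 in none. The level of miR-221 less the array median was 4.86, 3.83 and 5.28 in the tumors (4.66 ± 0.75, SD, n = 3), and that of miR-222 was 3.67, 2.53 and 4.49 (3.56 ± 0.98, SD, n = 3). Tumor replicate 2 was the lowest for both, within the range of the FVB glands, and replicates 1 and 3 were above every gland.

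Against the mean of the 3 strains the log2 difference was 1.09 (95% interval 0.47 to 1.71, limma adjusted p = 0.00344) for miR-221 and 1.41 (0.64 to 2.18, limma adjusted p = 0.00267) for miR-222. This is 2.13-fold and 2.66-fold higher on this scale, whose 0 was unlike between tumors and glands. In each tumor 15 to 64 of the 334 miRNAs passed background, so the median spot lay among those that did not. In each gland 209 to 262 passed. The 75th percentile used below has the same limit, so these are not plain folds of expression. Against the FVB glands alone, the strain of the tumors, the differences were 0.82 (95% interval -0.01 to 1.64, limma adjusted p = 0.0598) and 0.87 (-0.17 to 1.90, limma adjusted p = 0.101) and were not called. Without tumor replicate 2 they were 1.23 and 1.38 and were called (limma adjusted p = 0.0014 and 0.0030), and the differences from the mean of the strains were 1.50 and 1.93. Without tumor replicate 3 the differences from FVB were 0.50 and 0.40 (limma adjusted p = 0.186 and 0.328), and without FVB replicate 1 they were 0.54 and 0.51 (limma adjusted p = 0.305 and 0.434).

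The call and its direction depended on the scale. limma called 90.4% of the 261 miRNAs between tumors and the mean of the strains (37.9% higher and 52.5% lower in tumors) and 88.1% between tumors and FVB glands, while the median difference over all miRNAs was -0.83 and -1.04. Of the miRNAs called higher, 83 were well above background on none of the tumor arrays, among them miR-126-5p, an endothelial miRNA, with a difference of 3.28. The 15 miRNAs that passed background in each of the 3 tumors included 4 called higher, and the 21 that passed in 2 of them included 7. With median scaling 99 miRNAs were higher and 137 lower in tumors than in the mean of the strains, with the 75th percentile 172 and 70, and without scaling 59 and 173. Scaled to the 75th percentile, the differences of miR-221 and miR-222 from the mean of the strains were 4.06 and 4.39, and with quantile normalization 4.38 and 4.77. Without scaling they were -0.41 and -0.09 and were not called. With the normexp background correction they were -1.51 and -0.67, and with green divided by red -1.18 and -1.46, called lower in each case by limma. Relative to the median of all miRNAs under the same setting, the differences were 1.92 and 2.25 with median scaling and -0.63 and 0.20 with normexp. No direction between tumors and glands held under all of these.

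**Figure D4:**
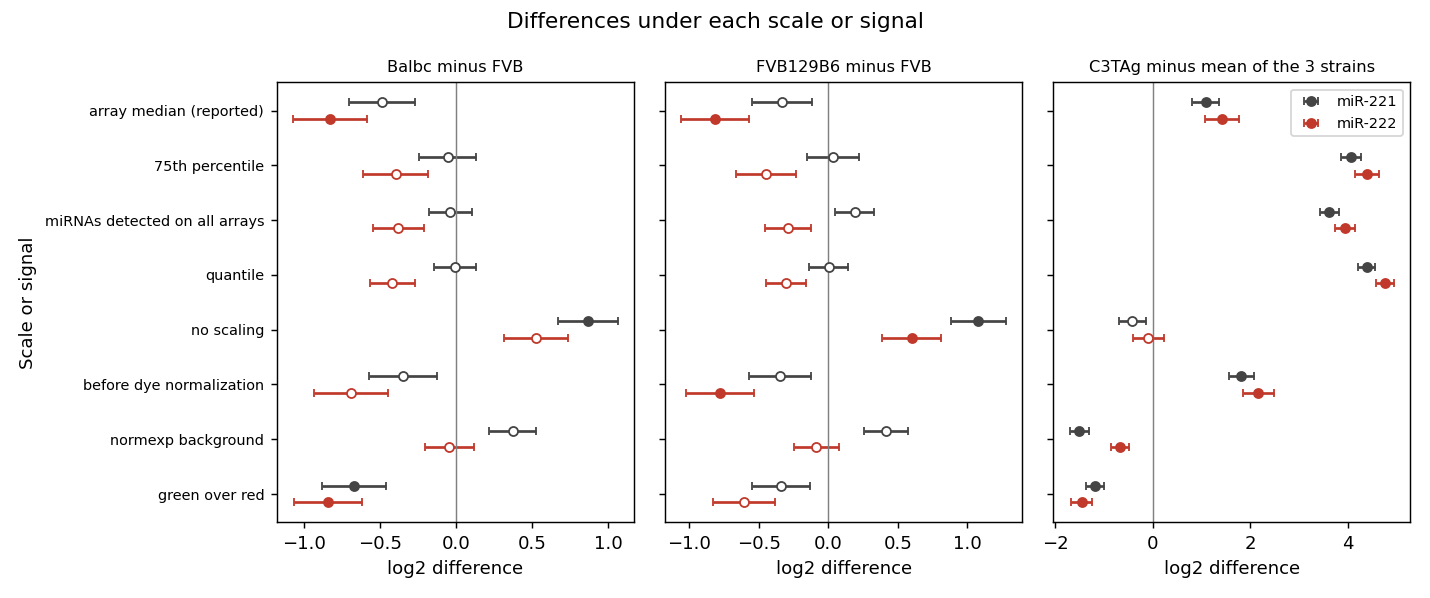
log2 differences of miR-221 (grey) and miR-222 (red) under 8 scales or signals, for Balbc minus FVB, FVB129B6 minus FVB and C3TAg minus the mean of the 3 strains. Bars are 1 standard error and filled points passed limma's test at an adjusted p of 0.05. In the tumor panel the points run from -1.51 (miR-221, normexp) to 4.77 (miR-222, quantile), on both sides of 0, whereas miR-222 lies to the left of miR-221 in both strain panels under every setting.

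The balance of the pair in tumors does not depend on a constant that scales the array, but it was read at low signal. The signal of miR-222 over background was 2.11 to 3.42-fold in tumors against 5.30 to 10.04-fold in glands. In tumor replicate 2, 1 of its 4 spots was well above background. The part of background in the pair difference of the tumors was not tested. The difference of miR-222 less miR-221 was -1.20, -1.30 and -0.79 on the tumor arrays (-1.10 ± 0.27, SD, n = 3). Tumor replicate 3 had the highest value of all arrays, replicate 1 lay between the FVB arrays and replicate 2 between FVB and Balbc. Against all 8 glands the tumors were higher by 0.36 (exact two-sided permutation test, p = 0.0364, 0.109 after adjustment over 6 tests), and against FVB glands by 0.05 (exact permutation test, p = 0.9). The first of these did not pass after adjustment, and without tumor replicate 3 it was 0.21 (exact permutation test, p = 0.178). Taking the median over spots gave 0.24 (exact permutation test, p = 0.23). In the red channel the tumors were higher than all 8 glands by 0.62 with no overlap (exact permutation test, p = 0.00606, the smallest possible, 0.0364 after adjustment). With normexp they were higher by 0.88 (exact permutation test, p = 0.00606, 0.0182 after adjustment). The normexp offset of 50 draws a log2 difference toward 0 where signals are low. In tumor replicate 2 the raw spot signals were 124 (miR-221) and 104 (miR-222) over a background of 49. The part of the offset in the value of 0.88 was not tested. As green over red the difference was -0.26.

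The miRNAs whose levels followed the pair across the 8 gland arrays were described by Pearson's correlation over the 261 miRNAs tested. Closest to miR-221 were miR-214 (r = 0.973), let-7i (0.971), miR-31 (0.966), miR-93 (0.962) and miR-106b (0.956), and miR-222 came as number 7 (0.942). Closest to miR-222 were let-7i (0.992), miR-181a (0.983), miR-99b (0.976), let-7e (0.973) and miR-25 (0.972), and miR-221 came as number 16. All 8 points share 1 slide, and the mean level of each of these miRNAs was highest in FVB. The level of let-7i was 7.00 ± 0.40 (SD, n = 2) in FVB against 6.37 ± 0.11 (SD, n = 3) in Balbc, and that of miR-181a 5.20 ± 0.76 against 3.98 ± 0.15. With the 75th percentile as scale the correlation of miR-221 with miR-222 was 0.663, 4 of the 5 neighbours of miR-222 were the same and 1 of the 5 of miR-221 was, let-7i. With quantile normalization the correlation was 0.554, and 2 of the 5 and 1 of the 5 were the same.

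Other miRNAs are known to act on Cip/Kip inhibitors or on estrogen receptor alpha, though not always on the same member of the Cip/Kip family. The 6 miRNAs of the list for the Cip/Kip inhibitors, which as a group are better known for repressing p21 (Cdkn1a) and p57, are miR-17-5p, miR-20a, miR-93, miR-106a, miR-106b and miR-25. Between FVB129B6 and FVB 1 of the 6 was lower (miR-25, -0.58) and none higher, between Balbc and FVB 2 were lower (miR-93, -0.67, and miR-25, -0.64), and between Balbc and FVB129B6 none passed. Over all miRNAs, 31.4% were called lower in FVB129B6 and 32.2% in Balbc. The count of 2 of 6 in Balbc lies near its share, and that of 1 of 6 in FVB129B6 lies below its share. Their median differences were -0.07, -0.23 and -0.18, beside -0.39, -0.48 and 0.03 over all miRNAs. Between tumors and the mean of the strains 5 of the 6 were lower and none higher, beside 52.5% lower and 37.9% higher over all miRNAs, with a median of -4.75 against -0.83, and 4 of them were well above background on no tumor array. miR-25, well above background on all 3 tumor arrays, had a level of 4.33 ± 1.44 (SD, n = 3) in tumors and a difference of -0.69 that was not called (limma adjusted p = 0.167).

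Of the list known for repressing estrogen receptor alpha, miR-22 was lower in both other strains than in FVB (-1.003 in Balbc and -1.52 in FVB129B6), as miR-222 was. miR-18 did not pass between strains (-0.08 and 0.33), and miR-206, a miRNA of skeletal muscle, was higher by 5.40 and 4.82. Between Balbc and FVB129B6 none of the 3 passed. Against the mean of the strains all 3 were lower in tumors, beside 52.5% of all miRNAs, with a median of -3.71, and they were well above background on at most 1 tumor array each. Against FVB alone miR-206 was called higher in tumors (1.74) and the other two lower. The miRNAs of these lists that lay at background in the tumors have only an upper bound there.

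Markers of other cell types moved between the groups beside these results. The 3 skeletal muscle miRNAs measured (miR-1, miR-133b and miR-206) were called higher in Balbc and FVB129B6 than in FVB glands. Over all 261 miRNAs, 15 were called higher in Balbc and 21 in FVB129B6. The summed green signal of the 3 was 3055 to 12236 in FVB, 181457 to 260898 in FVB129B6 and 322531 to 583737 in Balbc. Such sums are of unscaled signal, so the brightness of each array enters them, whereas the calls are on median-scaled levels. The FVB arrays were the dimmest glands. The 3 red blood cell miRNAs (miR-451, miR-144 and miR-486) were called lower in FVB129B6 than in FVB, beside 31.4% of all miRNAs. Their sum was 59074 to 89774 in FVB129B6 against 147313 to 182027 in FVB. In Balbc 1 of them, miR-451, was called lower, beside 32.2%. Of the 7 epithelial miRNAs, 2 were called lower in Balbc than in FVB (miR-200c, -1.29, and miR-203, -0.99), near the 32.2% of all miRNAs. None was called lower in FVB129B6, beside 31.4%. Their unscaled sums were 107040 to 168025 in FVB, 135626 to 274383 in Balbc, 294011 to 331259 in FVB129B6 and 2691 to 3337 in the tumors. miR-143 and miR-145, of smooth muscle and myoepithelium, did not pass between strains (-0.58 and -0.66 in Balbc, -0.62 and -0.69 in FVB129B6), nor did the 4 white blood cell miRNAs or miR-126-5p. The white blood cell miRNAs varied widely between the Balbc arrays, with an unscaled sum of 22573 to 171104. Their sum was 11495 to 17529 in FVB and 21889 to 27510 in FVB129B6. In the tumors all 7 epithelial miRNAs, both smooth muscle miRNAs, all 3 muscle and all 3 red blood cell miRNAs were called lower than the mean of the strains, beside 52.5% of all miRNAs. Of the 4 white blood cell miRNAs 2 were lower and none higher, and miR-126-5p was called higher (3.28) although at background. None of the red blood cell miRNAs was well above background on any tumor array. The part of cell makeup in the levels of miR-221 and miR-222 was not tested.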

How the data were processed

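Total RNA was labelled with Hy3 and/or Hy5 and hybridised to a custom Agilent array (LMT_miRNA_v2). Per the file headers, the authors read the tumor scans with Feature Extraction 9.5.1.1 and the gland scans with 10.5.1.1. The deposited green and red intensity values come after background subtraction and dye normalization of each array, carry quality calls per spot and are rounded in the files. The authors also deposited log2 values of the 1336 plus-strand mouse spots, which equal the log2 green intensity after 1 constant per array.

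Here, log2 green signals were centred on the array median over these spots, outlier spots were left out and spots averaged. A miRNA was tested if at least 50% of its spots were well above background on at least 3 arrays of the fit, which held for 261 miRNAs in both fits. Strains were compared with limma 3.58.1 (R 4.3.3) over 8 arrays and tumors over all 11, with p-values adjusted by Benjamini-Hochberg and called under 0.05. The pair difference was tested by exact permutation of arrays. The normexp correction (offset 50) used the median spot and background signals. The miRNAs named are the pair, for each the 5 most correlated miRNAs over the glands and the nearest probes, and members of the lists. The pair, lists and tests were chosen with earlier results of these data known. On simulated data with 50 of 261 miRNAs changed, the contrast FVB129B6 minus FVB found 58% of log2 changes of 1 and 92% of those of 2. The tumor contrast found 64% and 100%, and either contrast had at most 3 false calls and no wrong sign. The simulated noise was independent between miRNAs and held no shift shared by them, so these figures do not cover errors from scaling. Arrays of the same replicate number deviated together by a mean r of 0.0440 over 15 pairs (-0.277 to 0.422), against -0.0221 over 30 other pairs. No pairing by replicate number was seen, but so few arrays cannot exclude it. Tables and permutations were made in Python 3.11.15 (pandas 2.3.3, numpy 2.4.6) and plots in matplotlib 3.10.9.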

Additional observations from a re-analysis of the deposited data

Results flagged for a closer look

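The red channel, whose RNA the labels do not name and which no comparison of strains or tumors used as its main measure, carried signal at the probes of the pair on all 11 arrays. The lowest red signal of miR-221 was 5364 (tumor replicate 2) and that of miR-222 was 2173 (FVB replicate 2), and on every array all red spots of the pair were above all 77 negative control spots. In limma fits on red levels, scaled like the green ones, 294 miRNAs were tested. None of the strain contrasts of miR-221 or miR-222 was called (adjusted p = 0.184 to 0.960), with differences from FVB of 0.18 and 0.01 for miR-221 and 0.02 and -0.20 for miR-222 in Balbc and FVB129B6. Tumors exceeded the mean of the strains by 2.26 for miR-221 and 2.87 for miR-222 (limma adjusted p = 8.18e-08 and 3.26e-08), where 272 of the 294 miRNAs were called. The source of the red signal was not tested.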

How the results depend on the processing

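Between 25 and 27 alternatives were run for each limma result. The deposited table, a floor, outlier spots kept, other filters on background, a variance trend and the replicate block changed no call and no sign of the pair where they gave a value. With the filter on every array, miR-222 did not enter the tumor contrasts, since tumor replicate 2 did not pass, and its call there could not be made. Each of the others changed at least 1 call, sign or size, and the cause was not tested except where fewer arrays were fitted. The number of arrays limits the precision, and in the tumors the low signal over background does too.

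For miR-221, Balbc minus FVB was 0.87 (called) without scaling, 0.37 with normexp and -0.67 (called) as green over red. FVB129B6 minus FVB was 0.03 with the 75th percentile, 0.0020 with quantile normalization and 1.08 (called) without scaling. It was 0.42 with normexp and 0.19 with scaling on the miRNAs detected on all arrays. Tumors minus the mean of the strains was -0.41 without scaling, -1.51 (called) with normexp and -1.18 (called) as green over red. Tumors minus FVB was called at -1.25 with normexp and at -1.51 as green over red. It was also called at 4.06 with the 75th percentile, 4.38 with quantile normalization and 0.96 as a median over spots. Further calls were 1.59 before dye normalization and 3.77 with scaling on the miRNAs detected on all arrays.

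For miR-222, Balbc minus FVB was no longer called at -0.40 with the 75th percentile, -0.42 with quantile normalization, -0.043 with normexp, -0.69 before dye normalization, -0.38 with scaling on the miRNAs detected on all arrays, -0.86 with Balbc replicates 2 and 3 averaged and -0.83 in a fit over all 11 arrays, and it was 0.53 without scaling. FVB129B6 minus FVB was no longer called at -0.45 with the 75th percentile, -0.30 with quantile normalization and -0.088 with normexp. Nor was it at -0.29 with scaling on the miRNAs detected on all arrays, -0.61 as green over red and -0.81 over all 11 arrays. Without scaling it was 0.60 (called). Balbc minus FVB129B6 was 0.054 with the 75th percentile, 0.045 with normexp and 0.090 before dye normalization. Tumors minus the mean of the strains was -0.090 without scaling, -0.67 (called) with normexp and -1.46 (called) as green over red. Tumors minus FVB was called at -0.71 with normexp and at -1.94 as green over red. It was also called at 4.11 with the 75th percentile, 4.53 with quantile normalization and 1.67 before dye normalization. With scaling on the miRNAs detected on all arrays it was called at 3.83.

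For the pair difference, quantile normalization gave -0.41 for Balbc minus FVB, -0.31 for FVB129B6 minus FVB and -0.11 for Balbc minus FVB129B6. With normexp these were -0.42, -0.50 and 0.088, and tumors minus FVB was 0.53. As green over red they were -0.17, -0.27 and 0.10, tumors minus the glands was -0.26 and tumors minus FVB -0.43. As a median over spots, tumors minus the glands was 0.24 and tumors minus FVB -0.058. Before dye normalization Balbc minus FVB129B6 was 0.090. With Balbc replicates 2 and 3 averaged, tumors minus the glands was 0.35 (exact permutation p = 0.05). The exact test over the 3 strains, chosen after the data were seen, stayed past its unadjusted threshold in all 17 alternatives run for it. These alternatives reuse the same arrays and add no independent evidence of the strain gap.

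Leaving out 1 array at a time, miR-221 ranged from -0.77 to -0.21 for Balbc minus FVB, -0.61 to -0.05 for FVB129B6 minus FVB, -0.23 to -0.07 for Balbc minus FVB129B6, 0.78 to 1.50 for tumors minus the strains and 0.50 to 1.23 for tumors minus FVB. miR-222 ranged from -1.18 to -0.47, -1.17 to -0.46, -0.10 to 0.085, 0.95 to 1.93 and 0.40 to 1.38 in the same order. The pair difference ranged from -0.42 to -0.26, -0.56 to -0.40, 0.13 to 0.16, 0.21 to 0.46 and -0.10 to 0.15. Where this left 1 FVB array, that array was assumed to vary like the other groups.

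With the replicate number as a block, miR-222 had -0.92 for Balbc minus FVB (limma adjusted p = 0.0386) and -0.91 for FVB129B6 minus FVB (limma adjusted p = 0.0324), and the block changed no call of the pair. Over all miRNAs, the 99 calls for Balbc minus FVB became 47 with the 75th percentile, 59 with quantile normalization, 65 over all 11 arrays, 151 without scaling and 178 of 334 without a filter. The 103 for FVB129B6 minus FVB became 179 without scaling and 191 without a filter. The 236 and 230 of the tumor contrasts became 13 and 12 of the 15 miRNAs tested when every array had to pass background. The 9 for Balbc minus FVB129B6 ranged from 0 to 17. limma called 0 there with normexp (50 at an unadjusted p under 0.05), with the filter on every array (32) and without Balbc replicate 2 (36), FVB replicate 2 (65) or FVB129B6 replicate 1 (26) or 2 (40).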
